A study of Mus musculus with 2 samples.

Results

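The cells described here were barcodes of the postischemic mouse kidney that carried Cd209a RNA and met a rule meant for type 2 conventional dendritic cells. Some of them did not have the profile of that cell type, as described below. They were chosen by measured values: at least 2 unique molecular identifiers (UMI, 1 per captured RNA molecule) of Cd209a, at least 5 of H2-Ab1, none of Xcr1, Clec9a or Cd3e, and fewer than 10 UMI of C1qa, C1qb and C1qc together per 10000 UMI of the barcode. The rule found 135 of 17701 kept barcodes. Single-cell RNA had been sequenced with the 10x Genomics 3′ kit from unsorted suspensions of the injured kidney. The kidneys were taken on day 14 after 25 minutes of ischemia on that side, in male littermates aged 8 to 10 weeks at surgery. One library came from a Cre- mouse and one from a mouse named PHDTiEC, in which the endothelial Cdh5 promoter drives a tamoxifen-inducible Cre recombinase (Cdh5-CreERT2) against the 3 floxed prolyl hydroxylase genes (Phd1f/f, Phd2f/f and Phd3f/f). Both mice belonged to the same protocol of 4 doses of 3 mg tamoxifen given after the injury. The design asked how loss of these oxygen sensors in endothelium altered the repairing kidney, and that Cre is not directed at dendritic cells. Each genotype was 1 library of 1 mouse, so no difference between the genotypes has a replicate check and no test was run. All intervals are 95% intervals and cover counting error only.

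Conventional dendritic cells take up antigen, process it in endosomes and present it on MHC class II to T cells. The type 1 lineage depends on Irf8 and Batf3 and cross-presents antigen, whereas the type 2 lineage depends on Irf4, is directed to CD4+ T cells and shares C-type lectins such as Cd209a, Mgl2 and Clec10a with monocyte-derived cells. In kidney these cells lie among far more numerous resident macrophages that also carry MHC class II, so MHC class II alone does not mark them. On activation, dendritic cells induce Ccr7 and the chemokines Ccl17 and Ccl22, which attract T cells through Ccr4.

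The Cre- library held 136004367 UMI and the library labelled PHDTiEC 146758812 UMI. The quality filters kept 8468 and 9233 barcodes, of which 27 sequences occurred in both libraries, none of them a member. In barcodes with endothelial markers, Egln1, which encodes PHD2, was at 73.1 CPM (UMI per 1000000 UMI of the group) in the Cre- library and 203 CPM in the library labelled PHDTiEC, and Egln3 was at 27.3 and 164 CPM. Egln2 was at 33.8 and 35.7 CPM. Counts of 3′ ends do not read the deleted exons, and Egln1 and Egln3 are known targets of HIF. These levels therefore do not check the deletion, and the genotype is taken from the labels. Among the members themselves, Egln1 gave 21 and 31 UMI, Egln2 21 and 22 UMI, and Egln3 0 and 1 UMI.

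Of the 135 members, 59 were Cre- and 76 were PHDTiEC. Their depth was alike, with a median of 10227 UMI per cell (range 3426 to 40647) in Cre- and 10036 UMI (4394 to 63866) in PHDTiEC. Each step of the rule removed some barcodes with at least 2 Cd209a UMI: of 79 in Cre-, 76 remained without Xcr1 and Clec9a, 66 below the C1q limit, 64 with 5 or more H2-Ab1 UMI and 59 without Cd3e. The same steps took the PHDTiEC barcodes from 102 to 95, 82, 81 and 76. Members just inside the Cd209a threshold, at 2 UMI, numbered 10 in each library, and 12 and 16 further barcodes sat just outside it at 1 UMI. Just inside the C1q limit, between 5 and 10 UMI per 10000, lay 3 and 7 members, while 0 and 3 barcodes lay just outside it below 20. For H2-Ab1, 1 member in each library held 5 to 9 UMI, and 2 barcodes in Cre- and 1 in PHDTiEC held 0 to 4.

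The 5 genes that mark the label did not mark the members equally. Cd209a, a C-type lectin (chromosome 8, 3743397 to 3748984, minus strand, GRCm38), and the MHC class II chain H2-Ab1 (chromosome 17, 34257689 to 34269419) were in every member because the rule required them. Cd209a ran from 0.492 to 34.8 UMI per 10000 with a median of 8.31 in Cre-, and from 0.313 to 38.8 with a median of 7.60 in PHDTiEC. H2-Ab1 had medians of 105 and 90.5. The other 3 marker genes were patchy. Ccl17 was seen in 30 of 59 and 39 of 76 members, the cytokine receptor Flt3 in 15 and 16, and the inhibitory receptor Btla in 9 and 13. Flt3 and Btla were higher in type 1 dendritic cells of the same libraries (barcodes with Xcr1 or Clec9a, 81 and 100): Flt3 stood at 122 and 134 CPM there against 33.4 and 22 CPM in the members, and Btla at 210 and 220 against 18.9 and 25.5. Both genes were thus lower in the members than in type 1 cells of either library.

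**Figure D1:**
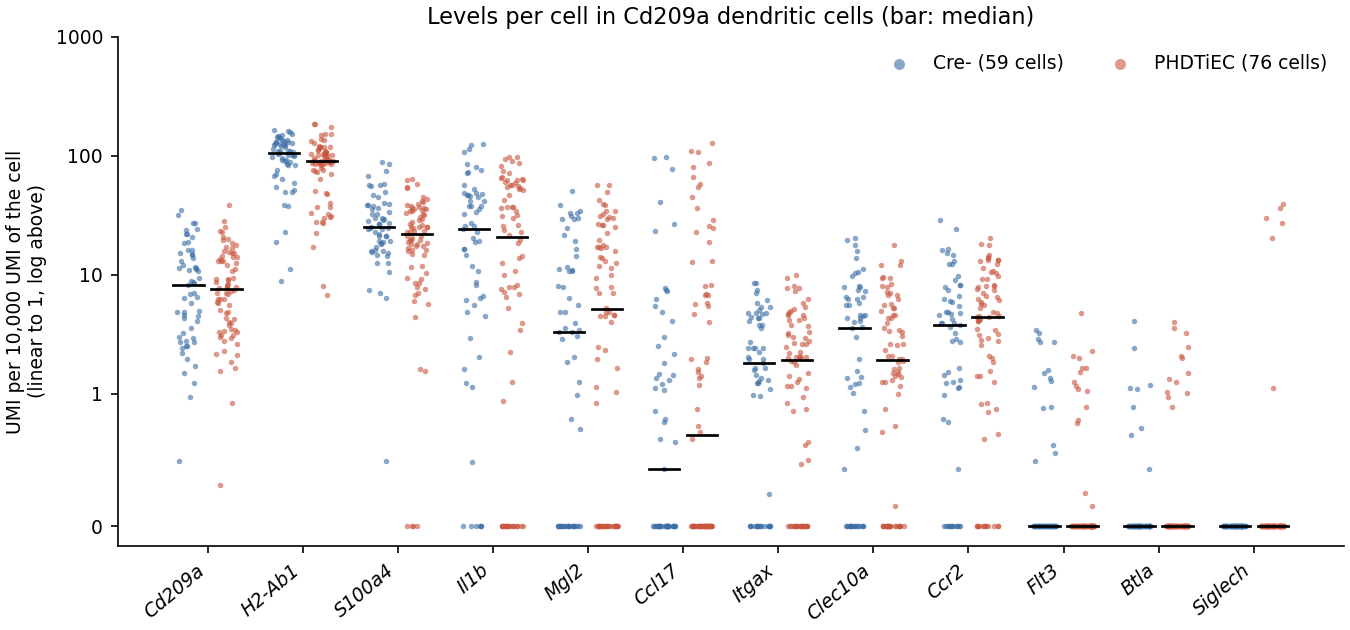
Level of 12 genes in each member, in UMI per 10000 UMI of the cell, on an axis that is linear to 1 and logarithmic above, with a bar at the median of each library. H2-Ab1 was in every cell, S100a4 in 59 of 59 and 72 of 76, Mgl2 and Ccl17 ran from 0 to over 50, and Siglech was high in 5 PHDTiEC cells and in no Cre- cell.

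Cd209a was nearly absent from barcodes that should lack it, where a count would be free RNA. In proximal tubule barcodes, which should lack Cd209a, 1 of 523 (0.191%) held a Cd209a UMI in Cre- and 0 of 661 in PHDTiEC, at median depths of 19014 and 17187 UMI. In barcodes rich in C1q, 15 of 2478 (0.605%) and 10 of 2636 (0.379%) held one. H2-Ab1 was different, since 87.4% and 88.0% of proximal tubule barcodes held at least 1 UMI of it, at summed levels of 519 and 440 CPM against 9431 and 8108 CPM in the members. Mgl2 was also in 65.7% and 56.4% of the C1q-rich barcodes, so it is no marker of the members on its own.

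No doublet caller was run, and 13 members carried at least 10 UMI of markers of another lineage. There were 8 such members in Cre-, holding 21.9% of the members' UMI, and 5 in PHDTiEC, holding 16.5%. Tubule genes were the commonest, in 5 and 4 members, followed by neutrophil-list genes in 4 and 2 members, led by Lcn2, which injured tubule also expresses. Over all members the tubule list summed to 955 UMI (17 of 20 genes seen) in Cre- and 820 UMI (17 of 20) in PHDTiEC, with Umod leading at 415 and 182 UMI. T cell and NK cell markers were at or near 0, with at most 6 UMI of either list in any member.

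Another 5 barcodes stood apart. Of the 76 PHDTiEC members 5, and of the 59 Cre- members none, held 2 or more UMI of Siglech, a lectin of plasmacytoid dendritic cells. These 5 cells had 13 to 26 UMI of Siglech, 17 to 43 of Irf8, 20 to 35 of Bst2, 8 to 38 of Tcf4 and 7 to 41 of Ly6c2, which are genes of plasmacytoid cells or shared with them. They met the rule with 2 to 10 UMI of Cd209a and 17 to 22 of H2-Ab1, and held no UMI of Mgl2, Ccl17 or Il1b. By these genes they go against the label of type 2 dendritic cells. Taking out the 13 other-lineage and the 5 Siglech members, 1 of which was both, left 118 members, 51 in Cre- and 67 in PHDTiEC. Of these, 3 PHDTiEC members held 9, 8 and 6 UMI of Ly6c2, past the minimum of 3 by which monocyte barcodes were taken, with no UMI of Mgl2 or Ccl17. They met the rule and were kept, as were other members with monocyte or plasmacytoid genes and no Ccl17. Among those was a PHDTiEC member with 94 UMI of Lyz2 and 22 of Plac8. Another held 17 UMI of Plac8, 8 of Bst2 and 6 of H2-Ab1. The list counts below are given with and without the 17 other-lineage or Siglech barcodes.

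Set beside the other myeloid barcodes of the same library, the members had more Irf4 and Ccl17. MHC class II through H2-Ab1 and low C1q were conditions of the rule, and the macrophage barcodes were taken for high C1q, so the levels of MHC class II and macrophage genes are given as a description. Irf4, the factor of the type 2 lineage, stood at 69.7 CPM (51.4 to 92.4) in Cre- members and 72.9 CPM (56.1 to 93.3) in PHDTiEC members. It was at 2.44 and 1.39 CPM in type 1 cells, 6.95 and 6.08 CPM in C1q-high macrophages, and 5.91 and 7.45 CPM in monocyte barcodes. Irf8 had the opposite order, at 34.8 and 164 CPM in the members against 1249 and 1327 CPM in type 1 cells. Without the 17 barcodes Irf8 in the members was 39.0 and 23.2 CPM. Macrophage genes were low in the members: Apoe, which carries lipid, was at 138 and 212 CPM against 33371 and 40604 CPM in C1q-high macrophages, and Csf1r, the receptor for CSF1, at 134 and 153 against 697 and 747. Csf1r in the members still stood above its 19.5 and 3.48 CPM in type 1 cells. The dendritic cell factor Zbtb46 was at 20.3 and 26.6 CPM, below its 43.9 and 36.9 CPM in type 1 cells and above its 1.01 and 1.19 CPM in macrophages.

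The cytokine gene Il1b reached 3116 CPM in Cre- and 2746 CPM in PHDTiEC, above the 1759 and 1591 CPM of C1q-high macrophages, the 1229 and 1354 CPM of monocyte barcodes and the 283 and 350 CPM of type 1 cells. It was seen in 53 of 59 and 58 of 76 members. S100a4, a calcium-binding protein of motile cells, was at 2592 and 2115 CPM, near the 3253 and 2184 CPM of monocyte barcodes and far above type 1 cells at 71.5 and 6.26 CPM. Ccr2, the receptor that brings monocytes and their kin into tissue, was in 47 and 64 members, at 483 and 516 CPM, below the 890 and 1166 CPM of monocyte barcodes. These levels rest on barcodes that the comparison rules themselves chose by measured values, so they are descriptions.

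**Figure D2:**
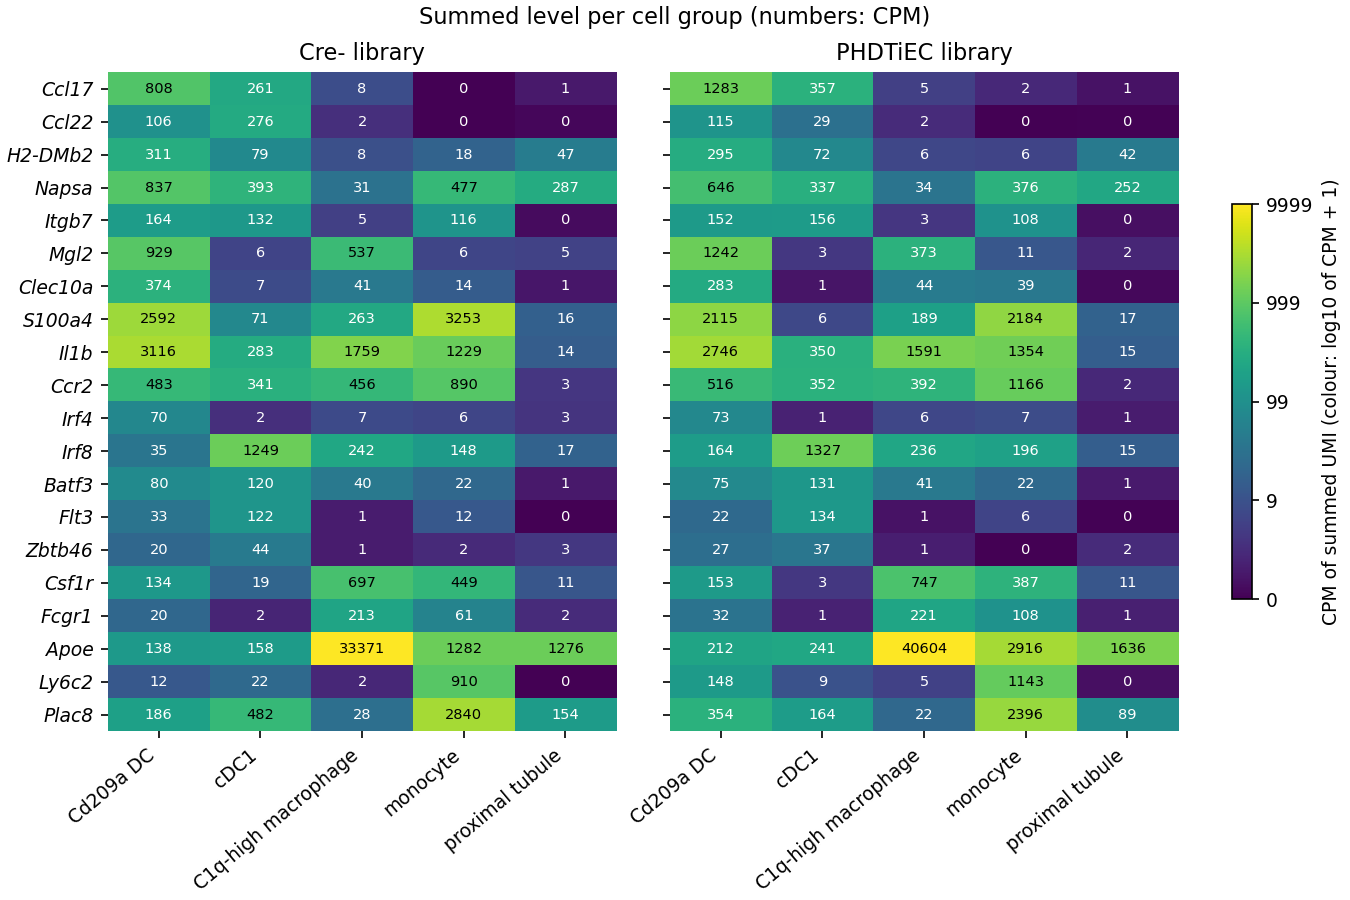
Summed level of 20 genes in the members (Cd209a DC), type 1 dendritic cell barcodes, C1q-high macrophage barcodes, monocyte barcodes and proximal tubule barcodes of each library, as CPM of the summed UMI printed in each cell and coloured on a log10 scale. Irf4 was highest in the members of both libraries (69.7 and 72.9 CPM), Irf8 in type 1 cells (1249 and 1327 CPM) and Apoe in macrophages (33371 and 40604 CPM).

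Ranked against all 3 myeloid groups pooled, 15 genes stood furthest above the pool in both libraries, Cd209a among them by the rule. Macrophages, at 2463 and 2626 barcodes, made up most of the pool, beside 81 and 100 type 1 and 72 and 69 monocyte barcodes. The ratios are therefore mostly against macrophages. Cd7 and Klrd1, known as natural killer and T cell surface genes, were among the 15 genes. Cd7 was higher by 6.68 in Cre- and 6.16 in PHDTiEC on the log2 scale, but was seen in only 16 of 59 and 15 of 76 members. Klrd1, which encodes CD94, was higher by 5.46 in both and was seen in 30 and 35 members. The T and NK marker lists were near 0 in the same cells, Cd3e by the rule. Antigen-loading genes were among the 15 too. H2-DMb2, a chain of the MHC class II peptide editor, was higher by 4.64 and 4.90. H2-Oa, which modulates that editor, was higher by 3.62 and 3.65, and the endosomal protease Napsa by 3.79 and 3.47. Napsa was at 837 and 646 CPM in the members, against 393 and 337 in type 1 cells and 477 and 376 in monocyte barcodes. In C1q-high macrophages it was at 30.9 and 34.1 CPM. Ccl17 was higher by 5.25 and 5.70 and Bcl11a, a lymphoid and dendritic transcription factor, by 3.72 and 4.49. The interleukin 1 decoy receptor Il1r2 (3.65 and 3.74), the leukotriene B4 receptor Ltb4r1 (3.53 and 3.77), the lipid receptor P2ry10 (3.44 and 3.50), the gut-homing integrin chain Itgb7 (3.53 and 3.43), Flrt3 (3.58 and 3.98) and Mcemp1 (3.45 and 3.70) made up most of the rest. Itgb7 did not set the members apart from type 1 cells, at 164 and 152 CPM in the members against 132 and 156 CPM there. In monocyte barcodes Itgb7 was at 116 and 108 CPM. Mmp7 was also listed, but 1 cell of each library held 25 of 25 UMI in Cre- and 164 of 166 in PHDTiEC. With monocytes taken by the broader rule named in the processing section, 12 of the 15 genes were the same.

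The members were not uniform, and their variation is described here by Mgl2 and Ccl17. Mgl2, a galactose-binding lectin (chromosome 11, 70130329 to 70137550), was seen in 38 of 59 and 52 of 76 members. Among the 118, 20 of 51 in Cre- (39.2%, 25.8 to 53.9) and 37 of 67 in PHDTiEC (55.2%, 42.6 to 67.4) held 5 or more Mgl2 UMI per 10000. The value is a cut in a range, with 9 and 12 cells within 2-fold of it. The intervals of the 2 libraries overlap.

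Between the sides of this cut, 6.44% of 2890 genes were higher in Mgl2-high members by at least 0.5 on the log2 scale in both libraries, and 7.27% were lower by as much in both. Of 14 measured cell cycle genes 10 were lower and none higher, and of 15 C-type lectins and uptake receptors 7 were higher and 1, Clec10a, lower. Of 32 immediate early and heat shock genes, which dissociation can induce, 7 were higher and none lower, and of 15 interferon-induced genes 5 were lower and none higher. The part of dissociation in this split was not tested. Type 2 identity genes divided, with 8 of 18 higher, among them Itgax, Sirpa and Ccl17, and 6 lower, among them Clec10a, S100a4 and Cd7. Monocyte genes divided too, with Ccr2 and Csf1r higher and Plac8 and Ms4a4c lower of 9 measured. The genes named next were picked after their values were seen. On the high side, the receptor for dying cells Axl was higher by 3.63 in Cre- and 3.84 in PHDTiEC (log2, high over low), the mannose receptor Mrc1 by 3.68 and 2.81, the elastase Mmp12 by 2.24 and 6.39, the lipid transfer gene Pltp by 2.31 and 3.37, and the Fc receptors Fcgr2b by 1.75 and 1.96 and Fcgr3 by 2.35 and 1.47. Itgax, the CD11c integrin, was higher by 1.37 and 1.64, Csf1r by 1.40 and 1.17 and Ccr2 by 1.52 and 0.55. On the low side, Plac8 differed by -3.22 and -4.76, Ms4a4c by -1.86 and -1.78, and the mitosis genes Birc5 by -4.02 and -3.39, Top2a by -4.72 and -1.60 and Mki67 by -2.84 and -1.68. Of 12 members with at least 5 UMI of Mki67, Top2a, Birc5 and Ube2c together, 6 of 7 in Cre- and 4 of 5 in PHDTiEC were on the Mgl2-low side. Clec10a differed by -0.77 and -0.86 and S100a4 by -0.71 and -0.77. Irf4 differed by 0.05 and 0.11, H2-Aa by 0.07 and 0.44 and Cd209a by 0.43 and 0.42. Median depth was 11311 against 8456 UMI in Cre- and 10734 against 8980.5 in PHDTiEC, and its part in the split was not tested.

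Ccl17 formed an overlapping axis. It was at 5 or more UMI per 10000 in 9 of 51 Cre- members (17.6%, 8.40 to 30.9) and in 25 of 67 PHDTiEC members (37.3%, 25.8 to 49.99), with 6 and 10 cells within 2-fold of the cut. The intervals overlap. Among Mgl2-high members, 6 of 20 in Cre- and 17 of 37 in PHDTiEC were also Ccl17-high, against 3 of 31 and 8 of 30 Mgl2-low members. Of 2890 genes, 3.63% were higher in Ccl17-high members by at least 0.5 in both libraries and 7.47% lower. Of 16 measured maturation and migration genes, 6 were higher (Ccl22, Ccr7, Cd83, Marcksl1, Nr4a3 and Tbc1d4) and none lower. Of 27 NF-kB response genes 6 were higher and none lower, 3 of them the near-identical copies Bcl2a1a, Bcl2a1b and Bcl2a1d. Of 14 costimulation and checkpoint genes 3 were higher (Cd40, Cd80 and Cd83) and 1 lower (Vsir). The costimulator Cd86 was at 0.92 (-0.11 to 1.89) in Cre- and -0.05 (-0.92 to 0.80) in PHDTiEC. Ccl22, which shares the receptor Ccr4 with Ccl17, was at 338 CPM in Ccl17-high and 51.3 CPM in Ccl17-low Cre- cells, a log2 difference of 2.72, and at 354 and 11.8 CPM in PHDTiEC, a difference of 4.91. Ccr7, which guides dendritic cells to lymph nodes, was higher by 1.44 and 2.54, the survival gene Bcl2a1a by 1.69 and 1.82, the orphan nuclear receptor Nr4a3 by 1.10 and 1.51, the maturation marker Cd83 by 0.91 and 0.68, Il1b by 0.76 and 0.80, and the membrane-bound chemokine Cxcl16 by 1.26 and 1.09. Of 14 cell cycle genes 6 were lower and none higher, and of 9 monocyte genes 4 were lower (Cx3cr1, Fn1, Lyz2 and Plac8) and none higher. Plac8 had 0 UMI in Ccl17-high and 97 in Ccl17-low Cre- members, and 3 and 135 in PHDTiEC. On the same side stood Lyz2, which encodes lysozyme, with differences of -2.34 and -1.82, Emp1 with -2.97 and -1.59 and Ifi27l2a with -1.85 and -1.23. Few cells carried much of the Lyz2. Of 534 UMI in Ccl17-low Cre- members, the cells with the most held 135 and 134. Of 711 in Ccl17-low PHDTiEC members they held 146, 94, 91 and 89. Counts of Bcl2a1a and its copies are uncertain.

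**Figure D3:**
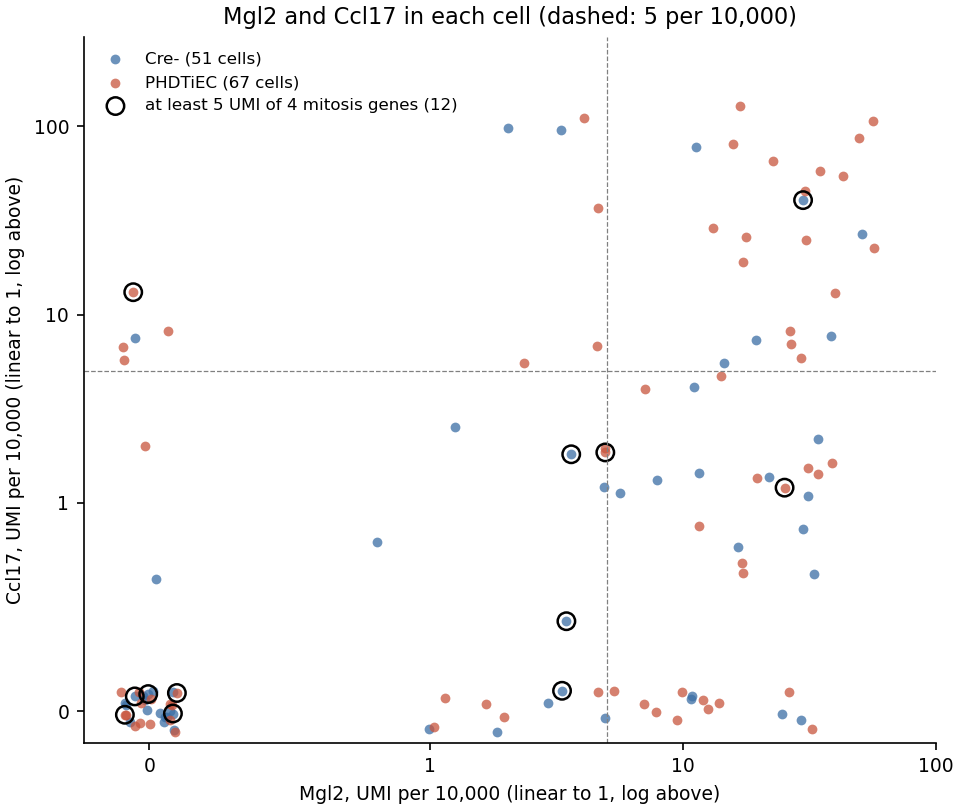
Mgl2 (x axis) and Ccl17 (y axis) in each of the 118 remaining members, in UMI per 10000, both axes linear to 1 and logarithmic above, with values at 0 spread sideways for visibility, dashed lines at 5 per 10000 and rings around the 12 cells with at least 5 UMI of 4 mitosis genes. The upper right field, high in both, holds 6 Cre- and 17 PHDTiEC cells, and 10 of the 12 ringed cells lie left of the Mgl2 line.

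Ccl17 and Ccl22 lie 58753 bases apart on mouse chromosome 8, with Cx3cl1 between them. Their promoters are shown because Ccl22 was higher in Ccl17-high members of both libraries, although 4 members with 87 to 128 UMI of Ccl17 held no Ccl22. The sequences are RefSeq's on GRCm38.p6, plus strand, ending at the base before the first base of each gene in GENCODE vM21: chr8:94810203-94810452 for Ccl17 (250 bases) and chr8:94745434-94745589 for Ccl22 (156 bases). Capitals mark the single match found in each when both strands were searched for TTCNNNNGAA, the letters of a STAT6-type site, and GGGANNNNCC, those of an NF-kB-type site.
Ccl17: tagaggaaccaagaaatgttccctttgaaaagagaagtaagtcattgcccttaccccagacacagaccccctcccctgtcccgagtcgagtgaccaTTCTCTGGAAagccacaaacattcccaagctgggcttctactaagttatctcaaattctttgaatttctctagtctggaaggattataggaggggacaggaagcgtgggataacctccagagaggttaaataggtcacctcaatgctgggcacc
Ccl22: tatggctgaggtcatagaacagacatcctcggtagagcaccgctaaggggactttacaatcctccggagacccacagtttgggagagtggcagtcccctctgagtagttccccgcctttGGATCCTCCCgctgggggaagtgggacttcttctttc
The Ccl17 window held a STAT6-type match, TTCTCTGGAA, 154 to 145 bases before the start, as did 5.85% of all 32851 promoter windows of that length. STAT6 acts downstream of interleukin 4 and interleukin 13. The Ccl22 window held an NF-kB-type match on the reverse strand, printed here as GGATCCTCCC, 37 to 28 bases before that start, as did 10.3% of promoter windows cut to 156 bases. The other motif was not matched in either window, at background shares of 17.6% for Ccl17 and 3.87% for Ccl22. A match of these letters is a description of the window and not evidence of binding.

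The members' share of all kept barcodes was 0.697% (0.531 to 0.898) in Cre- and 0.823% (0.649 to 1.03) in PHDTiEC. The ratio was 1.18, and its counting interval of 0.830 to 1.69 included 1. Among barcodes with at least 1 UMI of the leukocyte gene Ptprc, the shares were 58 of 4416 (1.31%) and 74 of 4919 (1.504%), a ratio of 1.15 (0.801 to 1.64).

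For levels, the UMI of each gene were summed over the members of a library, expressed as CPM of the members' total (688988 and 863663 UMI) and compared as the log2 ratio of PHDTiEC over Cre-. Of 3678 genes with at least 50 UMI over both libraries, 12.1% were higher in PHDTiEC by at least 0.5 on the log2 scale, 5.71% were lower by as much, and the median was 0.06. Without the 17 barcodes, 2891 genes were measured, 10.5% were higher, 7.09% lower, and the median was 0.04. Counts in a gene list are to be read against these shares. With 1 library per genotype they count genes past a fold and not genes shown to have changed.

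**Figure D4:**
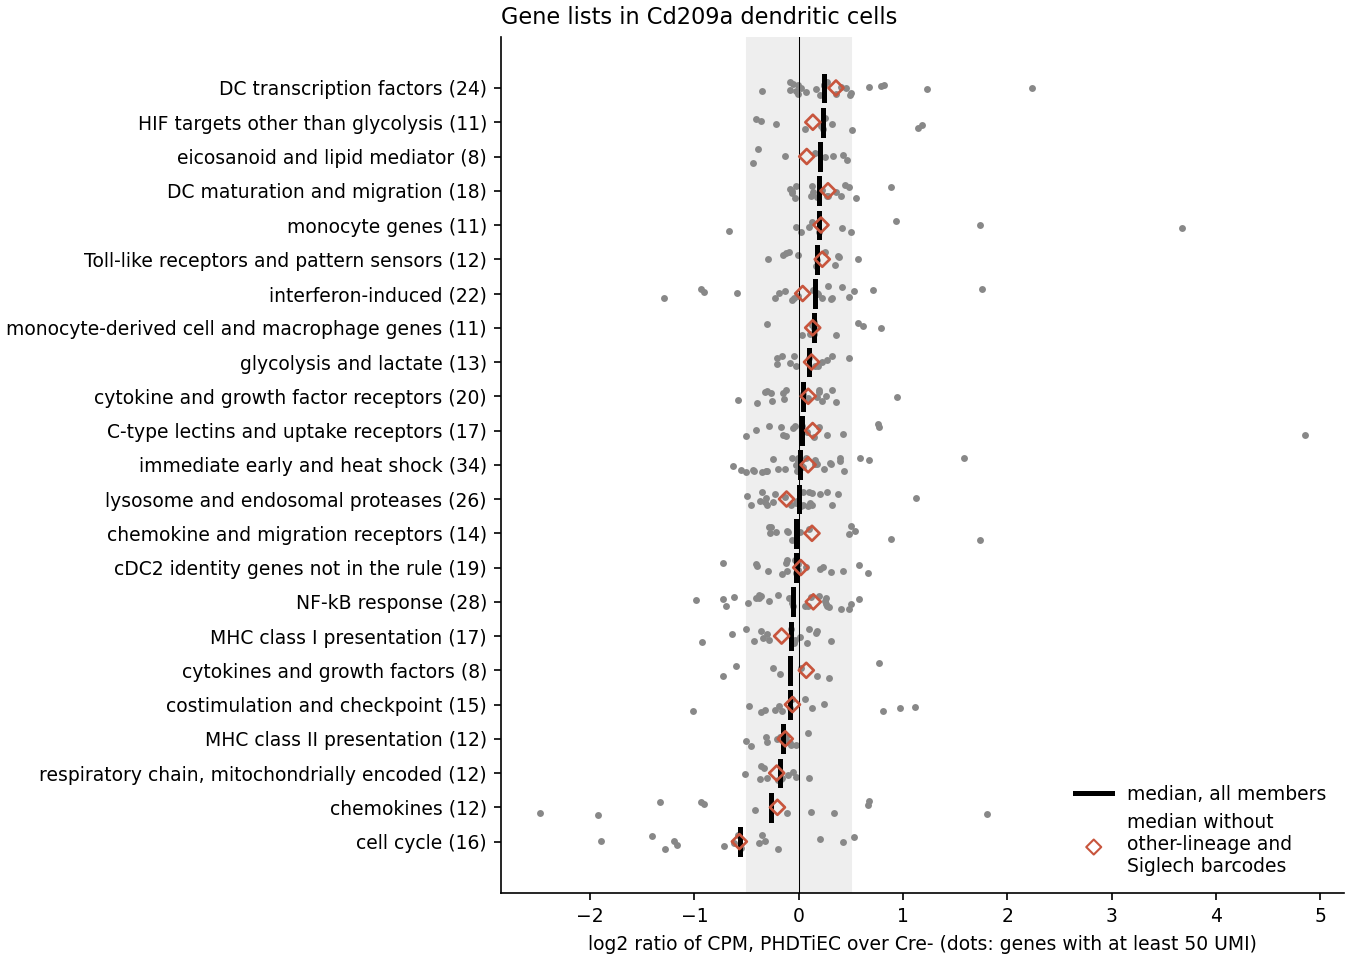
Log2 ratio of CPM, PHDTiEC over Cre-, for each gene with at least 50 UMI (dots) in 23 gene lists, ordered by the median over all members (black bars), with open diamonds for the median without the 17 other-lineage and Siglech barcodes and grey shading between -0.5 and 0.5. The cell cycle list had the lowest median (-0.57) and the dendritic cell transcription factors the highest (0.24, and 0.36 without the 17 barcodes).

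Chemokines split in both directions. Of 12 measured genes of a list of 23, 3 were past the fold higher and 5 lower in PHDTiEC, with a median of -0.26. Without the 17 barcodes 4 of 11 were higher and 4 lower, with a median of -0.20. Over all members the list summed to 2273 UMI in Cre- and 2831 in PHDTiEC, a difference of -0.01. Without the 17 barcodes the sum differed by 0.18, a sign opposite to that of the median. Ccl17 gave 557 UMI in Cre- and 1108 in PHDTiEC, 808 CPM (743 to 878) and 1283 CPM (1209 to 1361), a log2 ratio of 0.67 (0.52 to 0.82), and 0.83 without the 17 barcodes. The number of cells that held any Ccl17 was alike, at 30 of 59 (50.8%) and 39 of 76 (51.3%). After each cell was thinned to 2000 UMI, 16 of 59 (27.1%, 16.4 to 40.3) and 27 of 76 (35.5%, 24.9 to 47.3) held one, with overlapping intervals. The cell with the most held 132 of the Cre- and 138 of the PHDTiEC UMI.

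Cxcl16 was also higher in PHDTiEC, with 86 and 172 UMI, a ratio of 0.67 (0.29 to 1.06), and 0.72 without the 17 barcodes. Cxcl2, which attracts neutrophils, was lower: 349 UMI in 21 Cre- members and 115 UMI in 28 PHDTiEC members gave -1.93 (-2.24 to -1.62), and -1.32 without the 17 barcodes. Cxcl14 (58 and 13 UMI, -2.48), Ccl3 (56 and 28 UMI, -1.33) and Cxcl10 (36 and 24 UMI, -0.91) were lower as well, and 55.4% of the Ccl3 UMI in Cre- came from 1 cell. Cxcl9, an interferon-gamma target that attracts T cells, had 139 and 91 UMI, of which 1 cell held 89.2% in Cre- and 93.4% in PHDTiEC. Ccl5 had 19 and 83 UMI, 69.9% of the latter in 1 cell. Ccl22 differed little in sum, with 73 and 99 UMI and a ratio of 0.11.

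Among dendritic cell transcription factors, 5 of 24 measured genes were past the fold higher in PHDTiEC and none lower, with a median of 0.24. For 3 of the 5 this depended on the 17 barcodes. Irf8 had 24 and 142 UMI and a ratio of 2.24, which became -0.75, on 21 and 16 UMI, without them. Tcf4, the factor of plasmacytoid cells, went from 1.23 to 0.38, and Bcl11a from 0.67 to -0.13. The other 2 hardly changed. Zeb2, a repressor active in type 2 dendritic cells and monocytes, had 116 and 256 UMI, a ratio of 0.82 (0.49 to 1.15), and 0.86 without them. Runx3, which acts in dendritic and lymphoid cells, had 66 and 143 UMI, a ratio of 0.79 (0.36 to 1.23), and 0.82 without them. Without the 17 barcodes 8 of 22 measured factors were past the fold higher and none lower, and the median was 0.36. Irf4 differed by 0.07 and Klf4, which type 2 cells also use, by -0.36.

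The MHC class II sum differed little. None of 12 measured MHC class II genes besides H2-Ab1 was past the fold higher and 1 was lower, with a median of -0.15. None of 12 was past it either way without the 17 barcodes. Their sum, led by the invariant chain Cd74 with 14284 and 16876 UMI, differed by -0.12 (-0.15 to -0.10), and by -0.07 without the 17 barcodes. H2-Eb1 was at -0.21 and H2-Aa at -0.13. Of 17 MHC class I pathway genes, 3 were past the fold lower and none higher: H2-T22 (-0.93), the immunoproteasome subunit Psmb9 (-0.64) and H2-T23 (-0.50). Without the 17 barcodes H2-T22 held fewer than 50 UMI and was no longer counted, Psmb9 was at -0.88 and H2-T23 at -0.79. H2-Q7, at -0.07 over all members, was then at -0.90, so that 3 of 16 were lower. The class I sum differed by -0.15 (-0.21 to -0.09), and by -0.19 (-0.26 to -0.13) without them.

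Costimulation genes went both ways. Of 15 measured, 3 were past the fold higher and 1 lower, with a median of -0.09, and without the 17 barcodes 2 of 14 were higher and 1 lower. Slamf7, a receptor of activated leukocytes, had 69 UMI in 39 Cre- members and 170 UMI in 57 PHDTiEC members, a ratio of 0.97 (0.56 to 1.40), and 1.06 without the 17 barcodes. The rise of Slamf7 was not particular to the members. It was at 1.06 (0.97 to 1.14) in C1q-high macrophages and 0.61 (0.36 to 0.87) in type 1 cells. In monocyte barcodes it was at 3.24 (1.56 to 5.60), on 3 and 30 UMI. Lgals9, which encodes galectin 9, had 14 and 38 UMI (1.11), and Pvr 20 and 44 UMI (0.81). Cd40, the receptor through which T cells license dendritic cells, had 37 and 23 UMI (-1.01). Of 18 maturation and migration genes, 2 were past the fold higher, none lower, and the median was 0.20, with 2 of 16 higher and none lower without the 17 barcodes. Ccr7 was one of them, with 22 and 51 UMI (0.89, 0.14 to 1.68) in 8 and 11 members, 31.4% of the PHDTiEC UMI in 1 cell.

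Cycling genes were lower in PHDTiEC. Of 16 measured cell cycle genes, 9 were past the fold lower and 1 higher, with a median of -0.57, and without the 17 barcodes 8 of 14 were lower and 1 higher. Their sum of 1269 and 1032 UMI differed by -0.62 (-0.74 to -0.50), and by -0.71 without the 17 barcodes. Ube2c, which drives the end of mitosis, had 101 and 34 UMI (-1.90), and the survivin gene Birc5 70 and 33 UMI (-1.41). Few cells carried this difference. The 7 of 59 Cre- and 5 of 76 PHDTiEC members that held the mitosis genes supplied 75.5% and 64.9% of the list's UMI, and without them the sum differed by -0.22 (-0.44 to 0.01).

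Genes of the hypoxia response were of interest because the targeted enzymes mark HIF for degradation, although in another cell type. Of 11 measured HIF targets outside glycolysis, 3 were past the fold higher and none lower, with a median of 0.24 and a summed ratio of 0.16 (-0.01 to 0.33) that included 0. In the remaining members 2 of 8 were higher and the sum was 0.10 (-0.11 to 0.32). Ddit4, an inhibitor of mTORC1, had 24 and 68 UMI (1.18, 0.49 to 1.91), the lipid droplet gene Hilpda 17 and 47 UMI (1.14, 0.31 to 2.03) and Cited2 42 and 75 UMI (0.51, -0.05 to 1.09). Without the 17 barcodes they were at 1.14, 1.26 and 0.15. Hif1a itself had 58 and 109 UMI, a ratio of 0.58 (0.11 to 1.07). Of 13 glycolysis genes none was past the fold either way, with a median of 0.10 and a summed ratio of 0.00 (-0.08 to 0.08), and without the 17 barcodes 1 of 11 was higher. The difference between the 2 lists was not tested.

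Other lists were mixed. Of 28 NF-kB response genes, 2 were past the fold higher, the subunit Rel (0.50) and the signaling protease Malt1 (0.58), and 4 lower, the median being -0.06. The direction turned without the 17 barcodes, with 3 of 27 higher, 2 lower, a median of 0.14 and a summed ratio of 0.13 (0.06 to 0.19). Of 22 interferon-induced genes, 3 were higher and 4 lower, with a median of 0.15. In the remaining members 1 of 15 was higher and 3 lower, with a median of 0.04. Of 12 Toll-like receptor and pattern sensor genes 1 was higher and none lower, and 3 of 11 without the 17 barcodes. Of 8 eicosanoid genes none was past the fold, and 3 of 7 were higher without them. Of 11 monocyte genes 3 were higher and 1 lower, and 1 of 9 each way without them. Of 8 cytokine genes 1 was higher and 2 lower, and 1 of 7 each way without them. Gbp2, a gene outside the cytokine list, was lower (-1.29), with 73.1% of its Cre- UMI in 1 cell. Of 19 genes of type 2 identity outside the rule, 2 were higher, Ccl17 and Kmo (0.58), and 1 lower, the lymphotoxin chain Ltb (-0.73). In the remaining members Kmo was no longer past the fold (0.37), and the 2 higher genes were Ccl17 and Mgl2 (0.53, from 0.42), with Ltb again lower (-0.70). Cd14, the lipopolysaccharide co-receptor, had 194 and 360 UMI (0.57), and 0.72 without the 17 barcodes. Clec10a differed by -0.41. Gpr183, an oxysterol receptor that positions dendritic cells in lymphoid tissue, had 104 and 189 UMI (0.54), and the GM-CSF receptor chain Csf2ra 149 and 125 UMI (-0.58). Of 34 immediate early and heat shock genes, 3 were higher and 3 lower, with a median of 0.01, and without the 17 barcodes 5 of 32 were higher and 2 lower. Ly6c2 (8 and 128 UMI, 3.67) was at 1.59 on 8 and 31 UMI without the 17 barcodes, most of the 31 in the 3 members named above. A list of macrophage genes, with 3 of 11 higher and none lower, summed 0.62 higher in PHDTiEC, but 61.8% of the 3981 PHDTiEC UMI of Spp1, which leads it, came from 1 cell. In the remaining members 2 of 9 were higher and 1 lower, the sum differed by 0.10 and Spp1 by -0.79, on 246 and 183 UMI.

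Over all genes with at least 100 UMI that were seen in at least 20 members of the higher library, the top 12 by ratio were Bst2 (1.76), Tcf4 (1.23), the cathepsin Ctsl (1.12), Eif3j1 (1.10), St8sia4 (1.09), Supt16 (1.02), Itga4 (1.02), Dusp3 (1.00), Pigx (1.00), Prpf38b (0.98), Slamf7 (0.97) and the type I interferon receptor chain Ifnar1 (0.94). Bst2 and Tcf4 were at 0.46 and 0.38 without the 17 barcodes. Ctsl, of which 60.4% came from 1 PHDTiEC cell, was at -0.52 without them. Each of the other 9 was between 0.80 and 1.19 without them. Of these, Eif3j1, Prpf38b and Slamf7 were also higher in PHDTiEC in type 1 cells, C1q-high macrophages and monocyte barcodes, with counting intervals above 0. Pigx was lower in type 1 cells (-0.85). Itga4, the integrin chain that binds VCAM1 on endothelium, had 45 UMI in 29 Cre- members and 114 UMI in 47 PHDTiEC members (0.51 to 1.55).

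The bottom 12 were Cxcl2 (-1.93), Umod (-1.52), the mitochondrial leucyl-tRNA synthetase Lars2 (-1.29), AY036118 (-1.24), Rrad (-1.22), Tiparp (-1.20), the mitosis gene Cks2 (-1.13), Ifitm1 (-1.03), Gm26532 (-0.96), the tubulin Tubb4b (-0.90), Nenf (-0.82) and Tm9sf2 (-0.80). Umod is a gene of the loop of Henle, and 1 Cre- member held 92.5% of its UMI. Tiparp, an enzyme induced by the aryl hydrocarbon receptor, had 90 and 49 UMI (-1.74 to -0.69), and -1.12 without the 17 barcodes. Lars2 and AY036118 can collect reads of ribosomal RNA, and the mitochondrially encoded genes of the same members had a summed ratio of -0.31. The lower level was not particular to the members. AY036118 was at -0.86 in type 1 cells, -0.99 in C1q-high macrophages and -1.04 in monocyte barcodes. Lars2 was at -0.31 (-0.75 to 0.14), -0.71 and -1.10 in the same order. The median mitochondrial share was 2.98% in Cre- and 2.21% in PHDTiEC members, and its part in these ratios was not tested.

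**Figure D5:**
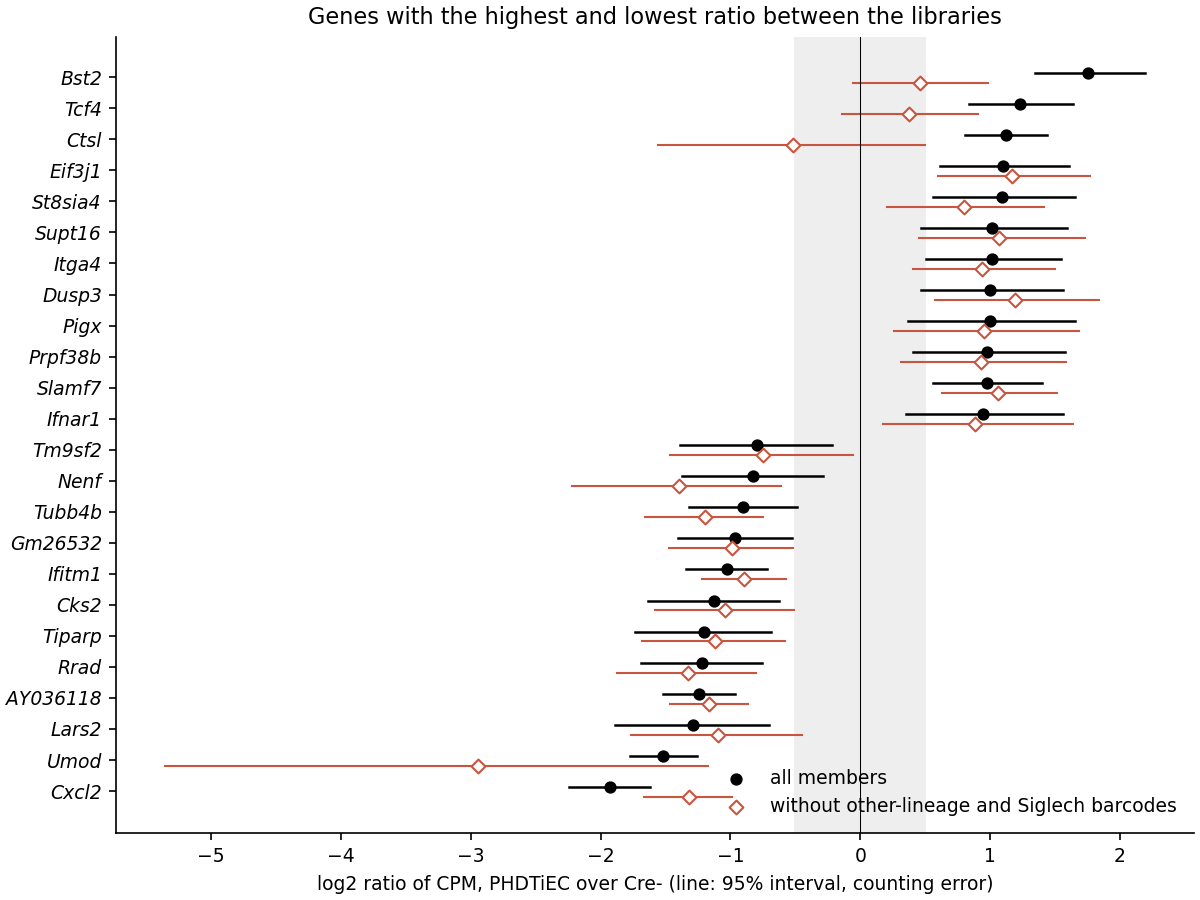
Log2 ratio of CPM, PHDTiEC over Cre-, of the top 12 and bottom 12 genes by ratio, over all members (black) and without the 17 other-lineage and Siglech barcodes (open diamonds), with 95% counting intervals and grey shading between -0.5 and 0.5. Bst2, Tcf4 and Ctsl were below 0.5 without the 17 barcodes, while the other 21 genes kept their side.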

How the data were processed

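The authors aligned the reads to mm10 with Cell Ranger (version 4 in the file header) and deposited UMI counts for every barcode, unfiltered and not normalized. Barcodes were kept with 500 to 100000 UMI, at least 200 genes, at most 50% mitochondrial UMI and log10 genes over log10 UMI of at least 0.8. The members and gene lists were chosen with earlier results of these data known. UMI were summed over members per library and given as CPM. Shares have exact binomial intervals, and ratios the interval of the split of the counts, at 95%. A gene at 0 in one library is bounded by 3 counts. Named genes were the genes of the rule, its markers, the floxed genes, the extremes and the most abundant gene of each list, the 12 highest and 12 lowest ratios (at least 100 UMI, in at least 20 members of the higher library) and the 15 genes highest against the myeloid groups. Axl and the other genes of the Mgl2 and Ccl17 splits, and some list members, were chosen after their values were seen. So were the cuts of 5 per 10000, the list counts across them and the limits of 10 UMI for another lineage and 2 UMI for Siglech. C1q-high macrophages held at least 50 C1q UMI per 10000. Monocytes by the rule set first (Ly6c2, Chil3 and Plac8 at least 5 UMI) were mostly tubule barcodes, 710 of 980 and 711 of 1009 carrying 10 or more tubule UMI, so barcodes with at least 3 Ly6c2 UMI and Ptprc were used (72 and 69). Computation was in Python 3.11.15 (numpy 2.4.6, scipy 1.17.1), and edgeR 4.0.16 in R 4.3.3 gave TMM scaling as an alternative only. Counting error alone is covered by every interval and floor. The summing and interval steps were tested on simulated data. Gene positions are from GENCODE vM21, with 32158 of 32285 identifiers (99.6%) matched. A motif search planned for interferon-induced promoters was not run, since that list lay within counting error without the Siglech and other-lineage barcodes.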

Additional observations from a re-analysis of the deposited data

Results flagged for a closer look

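Genes named for their ratio between the libraries were also compared in type 1 dendritic cell, C1q-high macrophage and monocyte barcodes. The 5 given here had counting intervals on opposite sides of 0 in the members and in another group. Their log2 ratios were at least 0.5 in size in both, also without the other-lineage and Siglech barcodes. Tcf4 was at 1.23 (0.84 to 1.64) in the members and -0.64 (-1.13 to -0.16) in type 1 cells. Without those barcodes Tcf4 in the members was at 0.38 (-0.14 to 0.91). Tiparp and Ifitm1, lower in the members, were higher in C1q-high macrophages by less than 0.5 (0.23 and 0.32). Each group is 1 library per genotype, so these differences were not tested. Cxcl2 had a log2 ratio of -1.93 in the members, 1.53 in type 1 cells and 1.07 in monocyte barcodes. The share of members that held Cxcl2 was alike in the libraries, at 35.6% in Cre- and 36.8% in PHDTiEC. Pigx was at 0.996 in the members and -0.845 in type 1 cells. Rrad was at -1.22 and 0.542, and Gm26532 at -0.962 and 0.791, in the same order. Umod, a tubule gene, was at -1.52 in the members and 1.70 in monocyte barcodes. In the Cre- members 92.5% of its UMI lay in 1 other-lineage barcode, and 18 and 3 UMI remained without the 17 barcodes. It was also lower in type 1 cells (-1.01) and C1q-high macrophages (-0.51). In barcodes under 100 UMI it was at 1083 CPM in Cre- and 711 CPM in PHDTiEC, and the part of such free RNA was not tested.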

How the results depend on the processing

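No paired analysis was possible because each genotype has 1 library. The ratio of member shares ranged from 1.10 to 1.28 over 12 alternatives, within its counting interval. The number of genes past the fold, 445 higher in PHDTiEC and 210 lower, became 714 higher with members at 1 or more Cd209a UMI, and with no UMI minimum 3581 genes were higher and 3359 lower, against 44 and 28 with at least 200 UMI. The summed MHC class II ratio of -0.12 became -0.25 with Cd209a from 1 UMI, -0.0768 from 3 UMI, -0.0491 with C1q under 5 per 10000, -0.0850 without Siglech members, -0.0723 without these and other-lineage members, -0.15 under TMM and -0.0741 without each gene's leading cell. The chemokine sum of -0.00928 became -0.19 (1 UMI), 0.11 (3 UMI) and 0.15 (C1q), then 0.14 without other-lineage members, 0.18 without both kinds, 0.16 as a mean over cells and 0.0796 without leading cells. The transcription factor sum of 0.30 became 0.15 from 1 UMI, 0.38 without other-lineage members, 0.22 without Siglech members and 0.42 as a mean over cells. The interferon sum of 0.10 became 0.25 from 3 UMI and 0.0133 without both kinds. The cell cycle sum of -0.62 became -0.43 from 1 UMI, -0.22 from 3 UMI, -0.31 with C1q under 5, -0.76 without other-lineage members, -0.49 as a mean over cells, -0.25 without leading cells and -0.22 without the mitosis members. The HIF target sum of 0.16 became -0.0205 without leading cells. Signs turned for the macrophage list, from 0.62 to -0.61 from 3 UMI, -0.24 with C1q under 5 and -0.35 without leading cells, and for Ctsl, from 1.12 to -0.0561, -0.0936 and, without both kinds, -0.52. With Cd209a from 1 UMI the sums of the monocyte, C-type lectin, chemokine receptor and type 2 identity lists turned from 0.21, 0.119, 0.108 and 0.0489 to -0.316, -0.106, -0.0405 and -0.0505, and that of the cytokine list turned from -0.127 to 0.0739 without both kinds. Of the other values for named genes, 360 stayed within their interval and 21 moved. Over 16 alternatives Tubb4b, at -0.90, ranged from -1.23 to -0.046, and Nenf, at -0.82, from -1.39 to -0.354. The cause of these shifts was not tested. The alternatives without Siglech members and without the mitosis members were chosen after seeing the data. Free RNA was estimated at 2.26% and 1.74% of the members' UMI. With 59 and 76 cells, genes under 50 UMI were left out of the gene counts, and ratios printed for such genes are imprecise.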

Other observations

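Of all kept barcodes, 26 in Cre- and 38 in PHDTiEC held 2 or more Siglech UMI (0.307% and 0.412%). Cd209a was seen in 3 of the 26 and 11 of the 38, at 2 or more UMI in 2 and 10 of them. Retnla, an alternative activation gene, had 46 UMI in 1 Cre- member, an other-lineage barcode, and 103 UMI in 5 PHDTiEC members, of which 1 cell held 94.2%. Mgp, a matrix gene, had 274 UMI in Cre- and 10 in PHDTiEC, 79.2% of the former in 1 cell.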
